A study of Mus musculus with 120 samples.

Results

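The cells compared here were mouse group 2 innate lymphoid cells (ILC2) that were secreting interleukin (IL)-13 after stimulation, labelled activated, and ILC2 recovered before any stimulus, labelled pre-stimulation. They were chosen by their labels, which name IL-13 as the index cytokine and give 1 of these states, and by a minimum of 10000 reads in genes. All 16 libraries so labelled passed, of 120 in the series, with 11 activated and 5 pre-stimulation cells, and each library was made from 1 cell. Per the labels, ILC2 were sorted as lineage-negative, c-Kit+ Sca-1+ cells from the mesentery of 20 wild-type C57BL/6 mice pooled together, a tissue that the labels also call fat. The study's methods add that mouse ILC2 usually came from retired female breeders and were grown for months with IL-2, which both groups therefore share. Activated cells had IL-2 and IL-33 at 10 ng/mL each and were seen to secrete IL-13 by live imaging at 8 h of stimulation, while no treatment is labelled for the pre-stimulation cells. The question was which transcripts distinguish an ILC2 that is releasing IL-13 from a resting one. Exposure to IL-33, time under imaging and IL-13 secretion differ together between the groups and cannot be told apart here.

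ILC2 are tissue lymphocytes without antigen receptors that respond to alarmins. IL-33 released from damaged tissue binds its receptor ST2, encoded by Il1rl1, and signals through NF-kB and mitogen-activated kinases, while IL-2 signals through STAT5. Activated ILC2 make the type 2 cytokines IL-5 and IL-13, which drive eosinophil survival, mucus production and tissue repair.

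The libraries had 164740 to 464285 reads in genes, with a median of 266402 in the activated and 168778 in the pre-stimulation cells. Levels are given as CPM, the reads of a gene per 1000000 reads in genes. As the source animal or culture of a cell is not labelled, each group was treated as 1 sample, counts were summed over its cells and no test was made. The brackets after a summed CPM (exact Poisson) or a log2 ratio (Clopper-Pearson, from the reads as counted) hold 95% intervals for counting error only, since reads carried no molecular identifiers, and they do not cover the spread between cells. That spread is given by the values of the single cells, in the order of replicates 1 to 5 for the pre-stimulation cells, and by the range of the log2 ratio on leaving out any 1 cell. A log2 ratio is of activated over pre-stimulation CPM, so that a value above 0 is higher in the activated cells. For ratios without brackets, list medians and calls, a group under 3 reads was set to 3 reads, which is the floor named below. Where a group is at that floor, leaving out 1 of its cells only rescales the floor. For such genes, a call that holds on leaving out any 1 cell does not cover the spread of that group's cells. With counts summed over whole cells, less RNA of a gene per cell and fewer cells with that RNA cannot be told apart in a group value.

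Some libraries stood apart. Pre-stimulation replicate 1 had reads in 4078 genes after thinning to 160000 reads, against 1580 to 2406 in the other 4 pre-stimulation cells and a median of 3022 in the activated cells. Its share of reads in cytosolic ribosomal protein genes was 9.91%, against 20.3% to 27.7% in the other 4. Activated replicates 9 and 10 had reads in 1648 and 2132 genes at that depth, and 16.7% and 12.7% of their alignments lay outside genes, against 2.06% to 6.37% in the other activated cells. Most resting cells thus had reads in fewer genes than most activated cells, so a gene unread before stimulation need not have been absent there. All 5 pre-stimulation cells and 5 activated cells share a title date, and the other 6 activated cells carry a later one. The labels do not say what the date marks or which libraries shared a pool. Against the 5 activated cells of the shared date alone, 423 genes were at least 4-fold higher and 533 lower, beside the counts of all 11 given below.

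Of 15 markers of ILC2, 14 had reads, but the list was lower in the activated cells. Of the 13 that averaged 50 CPM or more in the groups 5 were at least 4-fold lower and 1 higher, where 20.5% and 16.1% of all such genes were, and their median log2 ratio was -1.53, against -0.15. On leaving out any 1 cell, 2 stayed lower and 1 higher. Summed, the list had 6370 CPM against 12646 CPM, and 9 of 11 activated cells lay below every pre-stimulation cell. The exceptions were replicates 9 and 10, which stood apart above, at 10948 and 14334 CPM. Gata3, the lineage-defining factor, had 333 CPM (313 to 354) in the activated and 961 CPM (900.3 to 1025) in the pre-stimulation cells and was read in all 16. Il1rl1 had 895 and 863 CPM, Ly6a, which encodes Sca-1, had 2387 and 6586 CPM, and Kit had 99.6 and 641 CPM, in the same order. The marker without reads was Il17rb, a subunit of the IL-25 receptor. No reads fell on any of the 7 macrophage or monocyte, 7 NK cell or ILC1, 6 eosinophil or neutrophil, 5 fibroblast and 4 adipocyte markers. Of 9 T-cell markers, Cd3e, Cd3d, Cd4, Cd8a, Cd8b1 and Trac had 0 reads, Trbc1 and Trbc2 were read in both groups (71.7 and 443 CPM activated, 31.1 and 581 CPM pre-stimulation, with 99.1% and all of the Trbc1 reads in 1 cell of each group) and Cd3g in the pre-stimulation cells. Of 6 B-cell markers Ighm alone had reads, and of 9 mast cell or basophil markers Fcer1a and Cd200r3 did. The remaining lists had reads in Pecam1 of endothelial cells (9 reads, activated), in Hba-a1 and Hba-a2 of red blood cells (25 reads and 1, pre-stimulation) and in Il22 of ILC3.

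Of 2641 genes that averaged 50 CPM or more in the groups, called over the minimum below, 425 (16.1%) were at least 4-fold higher and 542 (20.5%) at least 4-fold lower in the activated cells, with a median log2 ratio of -0.15 over all 2641. These shares are the background for every count of genes below. A gene with few reads in 1 group passes the minimum only through the other group, in the lists as among all genes. On leaving out any 1 cell, 329 (12.5%) stayed at least 4-fold higher and 221 (8.37%) at least 4-fold lower. Among the lower genes, 182 had over 90% of their pre-stimulation reads in 1 cell, 31 of them in replicate 1. Of the higher genes, 14 had over 90% of their activated reads in 1 cell. With 5 resting and 11 activated cells of unlike depth, these counts cannot be set against each other. The same limit holds for the counts of higher and lower genes on leaving out any 1 cell. With DESeq2's size factors in place of total reads the split was 488 higher and 413 lower, and the median of all genes moved from -0.15 to 0.19. In 19 genes (0.719%) every activated cell lay above every pre-stimulation cell, and in 18 (0.682%) every activated cell lay below.

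**Figure D1:**
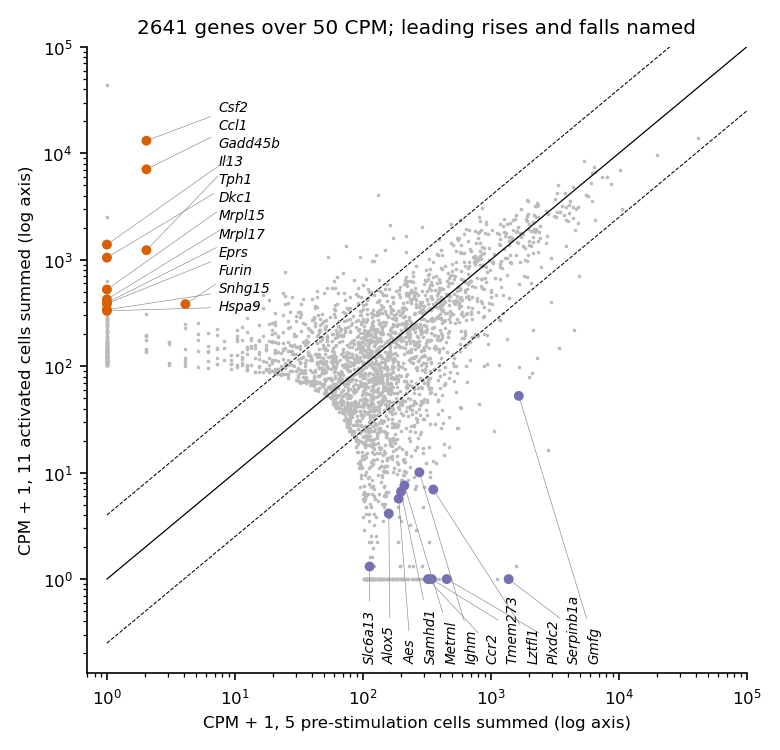
CPM + 1 of the 11 activated cells summed (vertical, log axis) against the 5 pre-stimulation cells summed (horizontal, log axis), 1 point per gene for the 2641 genes that averaged 50 CPM or more. The solid line marks equal levels and the dashed lines 4-fold; orange and purple points are the 12 leading rises and falls, and the orange points stand at 0 to 3.11 CPM in the pre-stimulation cells and 330.4 CPM or more in the activated cells.

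Cytokine transcripts separated the groups and also varied widely from one activated cell to the next. Il13, the index cytokine (ENSMUSG00000020383; GRCm38 chromosome 11, 53631324 to 53634702, minus strand), had 0, 0, 0, 5.93 and 0 CPM in the 5 pre-stimulation cells, from 1 read in all. The activated cells had 33.4 to 4064 CPM with a median of 949.7 CPM. The groups did not overlap. Summed, Il13 had 1231 CPM (1193 to 1270.4) against 1.04 CPM (0.0263 to 5.78), a log2 ratio of 10.21 (7.73 to 15.52), and the floored ratio of 8.63 ranged from 8.20 to 8.77 on leaving out any 1 cell. That ratio was 7.92 and 8.95 for the activated cells of the first and second title date. The lowest activated cells, replicates 5 and 1 at 33.4 and 52.8 CPM, were cells seen to secrete the protein, and replicate 6 had the highest value.

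Csf2, encoding granulocyte-macrophage colony-stimulating factor (GRCm38 chromosome 11, 54247271 to 54249667, minus strand), ranked first among the rises. It had 4.06, 0, 0, 0 and 0 CPM in the pre-stimulation cells and 244 to 56670 CPM with a median of 4504 CPM in the activated cells, with no overlap. The summed values were 13159 CPM (13034 to 13285) and 1.04 CPM (0.0263 to 5.78), a log2 ratio of 13.63 (11.15 to 18.94). An antisense gene, Gm12223, overlaps Csf2 in the annotation, and as the strand setting of the counting is not given in the sources used here, reads of the pair cannot be told apart.

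Il5, the other type 2 cytokine and the growth factor of eosinophils, was read in all 11 activated cells, at 4.88 to 2051 CPM with a median of 748 CPM. It had 93.4, 0, 0, 0 and 0 CPM before stimulation, so that its 23 reads there all came from replicate 1 and the groups overlapped. The summed values were 772 CPM (741 to 803) and 23.8 CPM (15.1 to 35.8), a log2 ratio of 5.02 (4.43 to 5.68), which became at least 7.53 without that cell.

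Il9, encoding a growth factor of mast cells and ILC2, was the most abundant transcript of the activated cells and was spread unevenly over them. No read was found in any of the 5 pre-stimulation cells, which puts the summed activated level of 44252 CPM (44022 to 44484) at least 14225-fold higher than the 3-read floor. Each of the 11 activated cells had some, 24.4 to 154582 CPM with a median of 196 CPM. Replicates 3, 8 and 11 had 96860, 145130 and 154582 CPM, while the other 8 had 24.4 to 1538 CPM, so Il9 alone took 9.69% to 15.5% of all gene reads in those 3 cells. With Il9 reads left out of the totals, 451 genes were at least 4-fold higher and 524 lower.

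Il6, a pleiotropic inflammatory cytokine, had 0 reads in the pre-stimulation cells and 0 to 18806 CPM with a median of 160.2 CPM in the activated cells, 9 of which had a read. Replicate 6, the highest for Il13, held 68.9% of the Il6 reads. Il4 had 0 reads before stimulation and 0 to 325 CPM with a median of 16.2 CPM in the activated cells, with reads in 7 of 11. Summed, Il6 was at least 812-fold and Il4 at least 30.9-fold higher than the floor, and both overlapped with the pre-stimulation cells through activated cells at 0. In the resting cells of the IL-5 index, however, Il4 had 133 CPM from 161 reads, against 169 CPM in the activated cells of that index, a log2 ratio of 0.34.

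The other cytokine genes named by rule differed by less or were read in few cells. Mif, encoding macrophage migration inhibitory factor, was read in all 16 cells, at 301, 213, 1135, 847 and 810.3 CPM before stimulation and 929.8 to 4453 CPM with a median of 1471 CPM in the activated cells, a log2 ratio of 1.61 (1.49 to 1.74). Tnf had 77.2, 0, 0, 0 and 0 CPM and then 0 to 347 CPM with a median of 0 CPM, with reads in 3 activated cells. Tnfsf14, which encodes LIGHT, had 63.9 and 53.9 CPM summed over activated and pre-stimulation cells, a log2 ratio of 0.24 (-0.20 to 0.71) that became at least 3.93 without replicate 1, its only resting source. Il2 was lower in the activated cells, with 4 reads against 182, but 96.2% of the latter lay in pre-stimulation replicate 2, at 1037 CPM. Areg, encoding the epidermal growth factor family member amphiregulin, had 167 reads in the activated cells, 98.8% of them in replicate 4, and none before stimulation.

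Of 15 chemokine genes, 3 passed the minimum. Ccl1, the ligand of CCR8 (GRCm38 chromosome 11, 82176657 to 82305690, minus strand, a gene model that reaches far upstream of the RefSeq start), had 0, 0, 0, 0 and 4.63 CPM in the pre-stimulation cells and 147 to 34763 CPM with a median of 5346 CPM in the activated cells. The groups did not overlap, and the summed values were 7092 CPM (7000.2 to 7185) and 1.04 CPM (0.0263 to 5.78), a log2 ratio of 12.74 (10.26 to 18.04). The neutrophil chemoattractants Cxcl1 and Cxcl2 were a matter of 1 cell, since replicate 4 held 99.8% and all of their activated reads, at 1551 and 1624 CPM, and neither was read before stimulation. Of 24 cytokine genes, 9 passed the minimum, with 6 at least 4-fold higher (Il13, Il5, Il9, Il6, Csf2 and Tnf) and 1 lower (Il2), of which 5 and 1 held on leaving out any 1 cell.

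**Figure D2:**
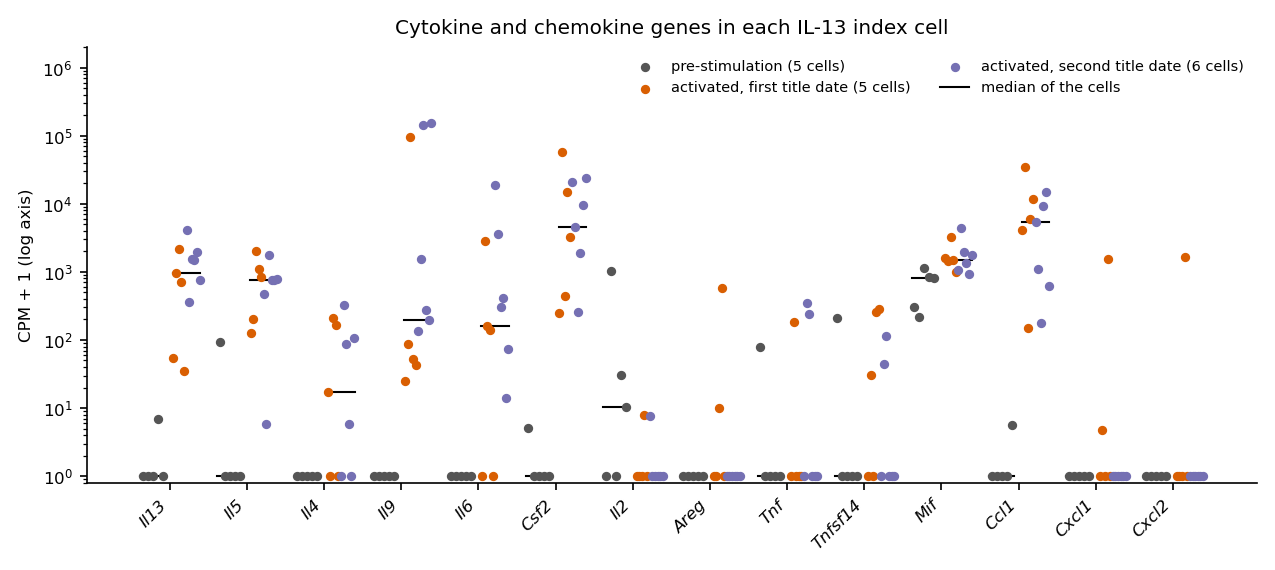
CPM + 1 (vertical, log axis) of cytokine and chemokine genes that reached 50 CPM in either group, 1 point per cell, for 5 pre-stimulation cells (grey) and the activated cells of the first (orange, 5) and second (purple, 6) title date, with black lines at the medians. Il13, Il9, Csf2 and Ccl1 separate every activated cell from every pre-stimulation cell, Il9 splits into 3 cells at 96860 CPM or more and 8 at 1538 CPM or less, and Cxcl1, Cxcl2 and Areg come almost wholly from 1 cell.

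The cells also differed in which cytokine led. Among the 11 activated cells, the 2 with the most Csf2, replicates 2 and 11, had 56670 and 23811 CPM, with 34763 and 618 CPM of Ccl1 and 86.3 and 154582 CPM of Il9. Replicate 3 had 439.5 CPM of Csf2 and 147 CPM of Ccl1 but 96860 CPM of Il9 and 2143 CPM of Il13. The summed level of the 24 cytokine genes was 731, 1256, 1189.8, 883 and 1056 CPM in the pre-stimulation cells and 2079 to 181890 CPM with a median of 19528 CPM in the activated cells, which did not overlap.

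To show the regulatory sequence ahead of these transcripts, the 250 bases before the RefSeq start (GRCm38.p6) are given for the 4 leading rises, Csf2, Ccl1, Gadd45b and Il13, 5′ to 3′ on the gene's strand, with matches to an NF-kB motif, GGNNNTTCC, or to an AP-1 motif, TGANTCA, each searched on both strands, in capitals.
Csf2, chr11:54249900-54250149, minus strand: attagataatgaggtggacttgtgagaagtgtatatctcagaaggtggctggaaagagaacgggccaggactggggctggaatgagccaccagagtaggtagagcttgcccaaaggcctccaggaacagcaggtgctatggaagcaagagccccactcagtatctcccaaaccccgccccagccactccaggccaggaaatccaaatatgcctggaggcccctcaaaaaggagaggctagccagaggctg
Ccl1, chr11:82179813-82180062, minus strand: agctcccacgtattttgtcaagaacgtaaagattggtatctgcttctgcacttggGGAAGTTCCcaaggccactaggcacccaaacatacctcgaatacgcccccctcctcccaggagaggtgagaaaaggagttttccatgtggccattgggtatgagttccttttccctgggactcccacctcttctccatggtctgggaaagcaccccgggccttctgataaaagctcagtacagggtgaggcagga
Gadd45b, chr10:80929841-80930090, plus strand: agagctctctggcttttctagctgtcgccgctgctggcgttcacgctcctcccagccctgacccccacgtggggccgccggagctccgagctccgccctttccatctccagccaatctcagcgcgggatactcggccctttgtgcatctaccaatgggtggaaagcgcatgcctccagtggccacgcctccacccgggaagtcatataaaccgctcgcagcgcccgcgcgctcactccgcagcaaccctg
Il13, chr11:53634703-53634952, minus strand: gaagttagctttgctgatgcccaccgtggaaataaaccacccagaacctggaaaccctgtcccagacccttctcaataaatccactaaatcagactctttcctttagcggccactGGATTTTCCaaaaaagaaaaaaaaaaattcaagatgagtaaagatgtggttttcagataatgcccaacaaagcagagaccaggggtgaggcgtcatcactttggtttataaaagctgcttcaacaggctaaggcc
Ccl1 and Il13 each held 1 NF-kB match, GGAAGTTCC and GGATTTTCC, and none of the 4 windows held an AP-1 match. Of all 27025 genes with such a window, 17.6% held the NF-kB and 7.82% the AP-1 motif. Of the 12 leading rises 10 had a window, and 3 of these held the NF-kB motif and 0 the AP-1 motif, while of the 12 leading falls 8 had one, with 4 and 0. The RefSeq start of Csf2 lies upstream of its start in the annotation used for positions, so the bases directly before that annotated start were not searched.

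The 12 leading rises, Csf2, Ccl1 and Il13 among them, were genes with few or no reads in any pre-stimulation cell, which need not mean that their RNA was absent. The rule ranked genes by their smallest ratio on leaving out any 1 cell, so their size is a description of how they were picked. Gadd45b, a stress-inducible signalling protein that NF-kB is known to induce, had 0 reads in all 5 pre-stimulation cells and 0 to 2529 CPM with a median of 1327 CPM in the activated cells, at least 447-fold higher in sum than the floor. The only activated cell without it was replicate 9. Tph1, the rate-limiting enzyme of serotonin synthesis outside the brain, was likewise unread before stimulation and reached 0 to 2959 CPM with a median of 9.15 CPM. Its levels fell into 5 cells at 598 to 2959 CPM, replicates 4, 6, 7, 9 and 11, and 6 at 0 to 9.15 CPM. Furin, the convertase that cleaves proproteins in the Golgi, had 0, 17.8, 0, 0 and 0 CPM and 93.8 to 947 CPM with a median of 426 CPM, with no overlap, a log2 ratio of 6.94 (5.39 to 9.22).

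The other leading rises were 6 genes without a read in any pre-stimulation cell. Dkc1, the pseudouridine synthase of H/ACA ribonucleoproteins, Mrpl15 and Mrpl17, proteins of the mitochondrial large ribosomal subunit, and Snhg15, a host RNA of small nucleolar RNAs, were unread in all 5 pre-stimulation cells and read in all 11 activated cells. Their activated values were 3.47 to 1225 CPM with a median of 591 CPM for Dkc1 and 4.83 to 666 CPM with a median of 389 CPM for Mrpl17. Mrpl15 ranged over 4.83 to 1264 CPM with a median of 363 CPM and Snhg15 over 92 to 709.6 CPM with a median of 223 CPM. The lowest values of Dkc1, Mrpl15 and Mrpl17 stood for very few reads, and their separation from the resting cells rests on those reads. Eprs, the glutamyl-prolyl-tRNA synthetase, and Hspa9, the Hsp70 chaperone of mitochondria, were unread before stimulation and read in 10 and 9 activated cells, at summed levels at least 124-fold and at least 106-fold above the floor. In 8 of the 12 leading rises the groups did not overlap, against 0.719% of all genes, which the rule that chose them favours, so nothing is read from this count.

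The NF-kB genes over the minimum nearly all stood higher. Of 17 members 8 passed the minimum and 7 of these were at least 4-fold higher, 6 of them on leaving out any 1 cell. The median log2 ratio was 5.57, against -0.15 over all genes, and 1.38 for the same members in the IL-5 index. Traf1 and Rel passed the minimum only through the activated cells, so their place among the higher genes follows in part from that choice. Nfkbia, the inhibitor that NF-kB induces, had 0, 0, 862, 0 and 4.63 CPM and 150.5 to 4656 CPM with a median of 733 CPM. Pre-stimulation replicate 3 held 99.3% of its resting reads and lay above the activated median, so the groups overlapped at a log2 ratio of 3.07 (2.83 to 3.32). The subunit gene Nfkb1 had 239.7, 59.2, 219, 0 and 4.63 CPM and 66.8 to 1416 CPM with a median of 408 CPM, a log2 ratio of 2.18 (1.90 to 2.48). Rel, which encodes c-Rel, had 1 read before stimulation and was read in 8 activated cells, at 0 to 1034 CPM with a median of 158 CPM, a log2 ratio of 7.52 (5.03 to 12.82). Traf1, an adaptor of tumour necrosis factor receptors, was unread before stimulation and read in 10 activated cells, at least 77.2-fold higher in sum than the floor. Summed over the list, the pre-stimulation cells had 272, 59.2, 1080.5, 699 and 37 CPM and the activated cells 515 to 8073 CPM with a median of 2654 CPM, 9 of them above every pre-stimulation cell.

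AP-1 and immediate early factors had 6 of 26 members over the minimum, 4 of them at least 4-fold higher and 3 on leaving out any 1 cell. Batf, an AP-1 family factor of type 2 lymphocytes, had 244, 0, 0, 0 and 269 CPM and 0 to 2069 CPM with a median of 604 CPM, a log2 ratio of 3.01 (2.74 to 3.28). Myc, a driver of growth and ribosome synthesis, had 0, 88.9, 30.4, 0 and 0 CPM and 0 to 473 CPM with a median of 108 CPM, with reads in 9 activated cells. Junb had 137 against 25.9 CPM and Ier2 98.3 against 201 CPM, log2 ratios of 2.41 and -1.03. With 1 cell left out in turn, the lowest and highest ratios were 1.73 and 3.78 for Junb and -1.89 and -0.32 for Ier2. Irf4, an interferon regulatory factor that the list also holds, was unread before stimulation and completed the 4.

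Downstream of IL-2, Stat5a had no read in any pre-stimulation cell and a read in every activated cell, at 2.44 to 2200.3 CPM with a median of 118 CPM. It was at least 108-fold higher in sum than the floor, with no overlap, but its lowest values stood for very few reads. Stat3 overlaps it on the other strand. Cish, a feedback gene of STAT5, had 508, 5.92, 273, 5.93 and 870.5 CPM and 0 to 852 CPM with a median of 277 CPM, a log2 ratio of -0.41 (-0.59 to -0.23). Of the 8 STAT, SOCS and Pim genes over the minimum of 13, 2 were at least 4-fold higher (Stat5a and Pim2) and 2 lower (Stat4 and Socs2), each on leaving out any 1 cell too, and the median log2 ratio was -0.31.

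Receptor genes gave counts near those of all genes. Il1rl1 differed between the groups by a log2 ratio of 0.05 (-0.06 to 0.17), and its single cells had 297, 456, 2968, 0 and 894 CPM before stimulation and 4.88 to 5044 CPM with a median of 345 CPM when activated, so the groups overlapped widely. That ratio ranged from -0.59 to 1.06 on leaving out any 1 cell and was -1.54 in the IL-5 index. Il2ra, the high-affinity subunit of the IL-2 receptor, had 382, 0, 649.5, 895 and 185 CPM and 145 to 3384 CPM with a median of 556 CPM, a log2 ratio of 1.59 (1.44 to 1.75). Il2rg, the common gamma chain, had 945 against 1408 CPM, a log2 ratio of -0.58 (-0.67 to -0.48). Ptger2, a prostaglandin E2 receptor, was unread before stimulation and read in 9 activated cells, at least 46.8-fold higher in sum than the floor. Of 22 receptor genes 8 passed the minimum, with 1 at least 4-fold higher (Ptger2) and 2 lower (Ifngr1 and Tgfbr2), of which 1 and 1 held on leaving out any 1 cell.

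Among 23 costimulatory and checkpoint genes, 8 passed the minimum, and 3 of them were at least 4-fold higher also on leaving out any 1 cell: Tnfrsf9, which encodes 4-1BB, Cd83 and Pdcd1lg2, which encodes PD-L2. Another 2 were at least 4-fold lower, Klrg1 and Cd200r1, of which Klrg1 held on leaving out any 1 cell. The list summed to 2282 CPM in the activated and 3015 CPM in the pre-stimulation cells. None of the 3 higher genes had a read in a pre-stimulation cell. Tnfrsf9 had 0 to 732 CPM with a median of 267 CPM in the activated cells and Pdcd1lg2 had 0 to 400.5 CPM with a median of 88.3 CPM. Tnfrsf18, encoding GITR, was read in all 16 cells, with 937 against 1435 CPM, a log2 ratio of -0.61 (-0.71 to -0.52). Klrg1, an inhibitory receptor of mature ILC2, went the other way. It had 796, 877, 1287, 516 and 625 CPM before stimulation and 0 to 180.4 CPM with a median of 0 CPM in the activated cells, 3 of which had a read, so every activated cell lay below every pre-stimulation cell, at a log2 ratio of -4.21 (-4.48 to -3.95).

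Genes that build ribosomes were higher as a group. Of 51 ribosome biogenesis genes 35 passed the minimum, 22 of these were at least 4-fold higher, each of them also on leaving out any 1 cell, and 1 was lower (Polr1a), which did not hold on leaving out pre-stimulation replicate 4. The median log2 ratio was 2.85, and 32 of the 35 were above 0. Besides Dkc1, Rrp15 was unread before stimulation and had 0 to 521 CPM with a median of 278 CPM in the activated cells. Nhp2, the dyskerin partner, had 443, 664, 1068, 799.9 and 0 CPM and 4.34 to 3131 CPM with a median of 1574 CPM, a log2 ratio of 1.48 (1.35 to 1.61), and Nop10, of the same complex, had 1793 against 1307 CPM, a log2 ratio of 0.46 (0.37 to 0.55). Summed over the list the pre-stimulation cells had 2340.2, 7027, 3521, 5676 and 2486 CPM and the activated cells 6539 to 19426 CPM with a median of 13341 CPM, with 10 of 11 above every pre-stimulation cell.

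The translation factors and chaperones followed. Of 35 translation factors over the minimum 15 were at least 4-fold higher, 13 on leaving out any 1 cell, and none lower, with a median log2 ratio of 1.51. Eif3b, a subunit of the eIF3 complex, had 4 reads before stimulation against 805, a log2 ratio of 5.93 (4.56 to 7.80), and Eif1a was unread before stimulation and at least 56.6-fold higher in sum than the floor. The most abundant members did not differ in this way, as Eif1 had 2550 against 2336 CPM and Eef1a1 1285 against 1839.5 CPM. Of 31 chaperone genes over the minimum 15 were at least 4-fold higher, 12 on leaving out any 1 cell, and none lower, with a median of 1.97. Hsp90ab1 had 264, 0, 24.3, 444 and 616 CPM and 508 to 3933 CPM with a median of 2331 CPM, a log2 ratio of 2.84 (2.66 to 3.01). Its stress-inducible paralog Hsp90aa1 had 447, 598, 1433, 799.9 and 1000.1 CPM and 1377 to 4521 CPM with a median of 1895 CPM, a log2 ratio of 1.48 (1.38 to 1.59). Cdc37, the cochaperone that brings kinases to Hsp90, was unread before stimulation and read in all 11 activated cells, at 4.34 to 864 CPM with a median of 173 CPM. The lowest values of Cdc37 stood for very few reads. Every activated cell lay above every pre-stimulation cell in the summed level of both lists, at 16745 to 26286 CPM with a median of 20310.4 CPM against 9633, 11234, 10483, 9623 and 11636 CPM for translation factors. For chaperones the values were 10859.9 to 20665 CPM with a median of 16194 CPM against 4636, 8917, 5730.2, 4029 and 4644 CPM.

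The secretory pathway differed less. Of 40 endoplasmic reticulum genes over the minimum 9 were at least 4-fold higher, each also on leaving out any 1 cell, and none lower, with a median of 0.87 and 33 members above 0. Pdia4, a disulfide isomerase, had 99.3 against 3.11 CPM, from 317 and 3 reads, a log2 ratio of 5.00 (3.44 to 7.28). The translocon gene Sec61g had 1361, 290.3, 388, 1244 and 542 CPM and 232 to 3039 CPM with a median of 1717 CPM, a log2 ratio of 1.18 (1.07 to 1.29). Of 20 coat and cargo genes over the minimum 6 were at least 4-fold higher and none lower. Kdelr2, a retrieval receptor, and Tmed3, a cargo adaptor, had log2 ratios of 4.37 (3.44 to 5.51) and 4.57 (3.51 to 5.89), from 9 and 7 resting reads, of which replicate 1 held all and 85.7%. The endoplasmic reticulum list summed to 14927, 13367, 8031, 9919 and 13136 CPM before stimulation and 15575 to 33194 CPM with a median of 18301 CPM in the activated cells, which did not overlap.

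**Figure D3:**
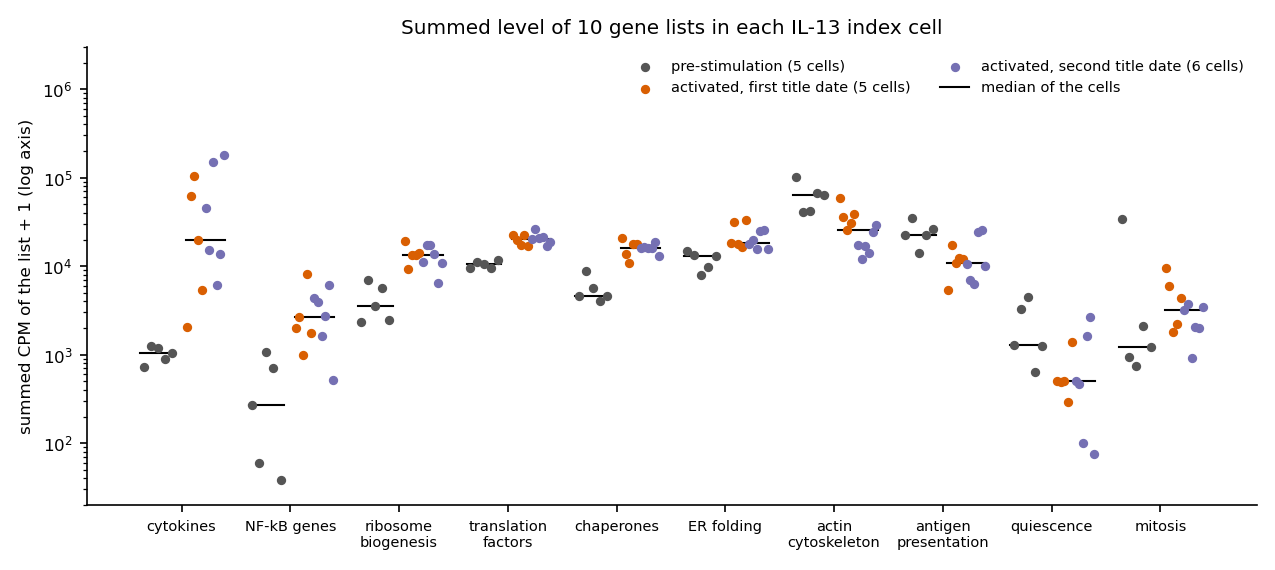
Summed CPM + 1 (vertical, log axis) of 10 gene lists, 1 point per cell, for 5 pre-stimulation cells (grey) and the activated cells of the first (orange, 5) and second (purple, 6) title date, with black lines at the medians. Cytokines, translation factors, chaperones and endoplasmic reticulum (ER) folding genes separate the groups of cells, ribosome biogenesis does so but for 1 activated cell, and mitosis genes stand out in 1 pre-stimulation cell, replicate 1.

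In glycolysis 3 of 13 genes over the minimum were at least 4-fold higher, each also on leaving out any 1 cell, and 1 lower (Hk1), read in 1 cell of each group, with a median of 1.00, and 10 of 11 activated cells lay above every pre-stimulation cell in the summed level of the list. G6pdx, the entry enzyme of the pentose phosphate pathway, was unread before stimulation and had 0 to 547 CPM with a median of 166 CPM in the activated cells, and Pgam1 had 219 against 18.7 CPM. The 18 resting reads of Pgam1 were all in replicate 1, and its log2 ratio of 3.55 became at least 5.71 without it. Gapdh had 410.4, 332, 838, 130.4 and 486 CPM and 382 to 1583 CPM with a median of 828 CPM, a log2 ratio of 1.00 (0.85 to 1.15). Of 69 nuclear genes of oxidative phosphorylation over the minimum 5 were at least 4-fold higher and 1 lower, with a median of 0.37. The higher genes numbered 9 without pre-stimulation replicate 1, while 2 higher and 0 lower held on leaving out any 1 cell. Ndufab1, the mitochondrial acyl carrier protein, had the largest log2 ratio among them, 3.08 (2.81 to 3.37), and 4.14 without pre-stimulation replicate 1. Cox6b1 had 2673, 1979, 1949, 2868 and 2574 CPM and 1505 to 3001 CPM with a median of 1992 CPM, a log2 ratio of -0.23 (-0.30 to -0.16). The 6 mitochondrially encoded genes over the minimum had a median of -0.42 and none passed 4-fold. In the proteasome list the counts were 2 higher and 2 lower of 39, with a median of 1.10, and 9 higher and 2 lower of 38 without pre-stimulation replicate 1. The activator gene Psme2 had a log2 ratio of 1.65 (1.54 to 1.76) and the immunoproteasome subunit gene Psmb9, which Tap1 overlaps on the other strand, one of -2.80 (-3.14 to -2.46).

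Genes of small mediators went both ways. Odc1, the first enzyme of polyamine synthesis, was unread before stimulation and had 0 to 1533 CPM with a median of 189 CPM in the activated cells. With Tph1 and Ptgs2, the inducible cyclooxygenase, it made up the 3 of 6 members over the minimum that were at least 4-fold higher. Of the 6, 2 were at least 4-fold lower, both on leaving out any 1 cell too, and Alox5, which makes leukotriene precursors, was among them. The median of the 6 was 3.14, and -0.43 without activated replicate 10, which held the highest Ptgs2 value. Hpgds, the prostaglandin D2 synthase, had 277 against 302 CPM, a log2 ratio of -0.12 (-0.32 to 0.07). Calca, which encodes the neuropeptide CGRP, had 0, 741, 0, 0 and 0 CPM and 8.12 to 10082 CPM with a median of 4586 CPM, a log2 ratio of 4.98 (4.72 to 5.24), and without pre-stimulation replicate 2, its only resting source, at least 10.08.

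Of 13 survival, death and stress genes over the minimum 6 were at least 4-fold higher and 2 lower, of which 5 and 0 held on leaving out any 1 cell. Their median log2 ratio was 0.99, with 10 of 13 above 0, and 4.45 for the same genes without pre-stimulation replicate 1. Bcl2a1d, an antiapoptotic Bcl-2 family gene with close paralogs, had 0 reads before stimulation and 0 to 545 CPM with a median of 98.1 CPM in the activated cells. The antioxidant genes Prdx1 and Txn1 had log2 ratios of 0.86 (0.79 to 0.93) and 0.99 (0.89 to 1.09). Sterol and fatty acid synthesis had 5 of 29 genes over the minimum, with 2 at least 4-fold higher, 1 of them on leaving out any 1 cell, 0 lower and a median log2 ratio of 0.45. The 2 were Idi1 and Msmo1, with 167 and 158 CPM against 24.9 and 34.2 CPM. Pre-stimulation replicate 1 held 95.8% of the resting reads of Idi1 and all of those of Msmo1, and without it, with the resting sums at the 3-read floor, their log2 ratios of 2.74 and 2.21 became 5.32 and 5.25. Sc5d had 74.8 against 175 CPM, a log2 ratio of -1.23.

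The 12 leading falls had few or no reads in the activated cells. Serpinb1a, an inhibitor of neutrophil serine proteases, had 593, 1102, 0, 3739 and 1699 CPM in the pre-stimulation cells and 0 reads in all 11 activated cells, at least 1468-fold lower in sum when the activated sum is set to the 3-read floor. Replicate 3 lacked it, so the groups touched at 0. Plxdc2, a transmembrane protein with a plexin domain, had 36.6, 853, 692, 172 and 648 CPM and 0 reads in every activated cell, at least 481-fold lower. Ccr2, the receptor of the chemokine CCL2, had 496, 41.5, 358, 107 and 486 CPM and again 0 in every activated cell, at least 343-fold lower. In these 2 genes the groups did not overlap.

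Gmfg, which helps take apart branched actin, was the most abundant of the leading falls. It had 898, 2601, 1032, 3164 and 1079 CPM and 0 to 185 CPM with a median of 0 CPM, with reads in 3 activated cells and no overlap, a log2 ratio of -5.00 (-5.24 to -4.77). Alox5 had 126, 403, 322, 0 and 4.63 CPM and was read in 1 activated cell, a log2 ratio of -5.66 (-6.75 to -4.74). Samhd1, which hydrolyses deoxynucleotides, had 52.8, 551, 395, 5.93 and 88 CPM and 0 to 59 CPM with a median of 0 CPM, a log2 ratio of -5.13 (-5.92 to -4.44). Aes, a corepressor of the Groucho family, had 20.3, 136, 376, 468 and 64.8 CPM and 0 to 30.5 CPM with a median of 0 CPM.

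Ighm, the immunoglobulin mu heavy chain gene, had 130.0, 409, 273, 0 and 556 CPM before stimulation and reads in 1 activated cell. The B-cell markers Cd79a, Cd79b, Ms4a1 and Pax5 had 0 reads in all 16 cells. Metrnl, a secreted meteorin-like protein, had 36.6, 557, 0, 5.93 and 458 CPM and reads in 1 activated cell. Tmem273 and Slc6a13, a transporter of gamma-aminobutyric acid, had 106, 533, 832, 0 and 366 CPM and 179, 0, 279, 101 and 4.63 CPM before stimulation against 0 and 1 read after. Lztfl1 had 114, 438, 546, 0 and 695 CPM and reads in 1 activated cell, but Ccr9 and Gm17200 overlap it on the other strand. In 3 of the 12 leading falls the groups did not overlap, against 0.682% of all genes, and the same limit holds for this count.

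Genes tied to quiescence had 7 of 19 members over the minimum, with 3 at least 4-fold lower on leaving out any 1 cell, 0 higher and a median of -1.50. Klf6, a zinc-finger factor, had 386, 847, 388, 444 and 176 CPM and 0 to 158 CPM with a median of 0 CPM, with reads in 3 activated cells and no overlap, a log2 ratio of -4.62 (-5.05 to -4.21). The others were Ypel3 and Rgs2, with log2 ratios of -8.04 and -3.71, each read in 1 activated cell. Btg1, an antiproliferative gene and the most abundant member, had 158, 207, 1275, 178 and 88 CPM and 21.5 to 925 CPM with a median of 233 CPM, a log2 ratio of -0.60 (-0.79 to -0.41). That ratio ranged from -0.99 to 0.57 on leaving out any 1 cell.

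Of 15 ILC2 lineage factors 3 had no read in any cell and 6 passed the minimum, with 2 at least 4-fold higher (Rora and Ahr) and 1 lower (Id2), of which 2 and 0 held on leaving out any 1 cell. Gata3 had 524, 2014, 1402, 427 and 718 CPM before stimulation and 54.9 to 1399 CPM with a median of 274 CPM in the activated cells, a log2 ratio of -1.53 (-1.66 to -1.40). Id2, the inhibitor of E proteins required by all innate lymphoid cells, had 1324, 664, 1335, 1499 and 1051 CPM and 0 to 1377 CPM with a median of 195 CPM, a log2 ratio of -2.13, or -2.68 to -1.93 on leaving out any 1 cell. Rora, the nuclear receptor needed for ILC2 development, was the reverse, with 16.3, 77, 339.9, 0 and 69.5 CPM and 22.9 to 2164 CPM with a median of 441 CPM, a log2 ratio of 2.58 (2.27 to 2.91). Ahr was unread before stimulation. The activated cells lay below every pre-stimulation cell in the summed level of these 15 factors in 9 of 11 cases, all but replicates 9 and 10, at 2871 and 5231 CPM.

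Of 5 genes of antigen-receptor signalling over the minimum, 2 were at least 4-fold lower (Cd3g and Lcp2) and 0 higher, and 1 of the 2 held on leaving out any 1 cell. Cd3g, a CD3 subunit, had 4034, 0, 552, 11.9 and 9.26 CPM before stimulation and 0 in all activated cells. Replicate 1 held most of these reads, and without it the log2 ratio was -7.14 in place of -10.23. Lcp2, the adaptor SLP-76, had 207, 196, 219, 5.93 and 1195 CPM and 0 to 345 CPM with a median of 0 CPM. Its log2 ratio of -2.10 was -0.82 once the resting cell with 68.1% of its resting reads, replicate 5, was left out, and 1.21 in the IL-5 index. Ptprc, which encodes CD45, had 93.9 against 359.8 CPM, a log2 ratio of -1.94 (-2.17 to -1.71). The summed level of the 9 T-cell markers was 4453, 1558, 1287, 616 and 13.9 CPM in the pre-stimulation and 0 to 3561 CPM with a median of 212 CPM in the activated cells, with Cd3e, Cd3d, Cd4, Cd8a and Trac at 0 in all 16. Among markers of mast cells and basophils Cd200r3 had 345, 326, 6.07, 1392 and 394 CPM before stimulation and 0 in all activated cells, at least 509-fold lower, with Cpa3, Mcpt8, Mcpt4, Tpsb2, Ms4a2, Prss34 and Hdc at 0 in every cell. The list summed to 345, 332, 6.07, 1392 and 1732 CPM and 0 to 334 CPM with a median of 0 CPM, which was not tested as a source of the other differences.

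Of 6 protease inhibitor and granule genes over the minimum 3 were at least 4-fold lower (Serpinb1a, Serpinb9 and Cst7) and 1 higher (Calca). Cst7, encoding cystatin F, had 748, 444, 334, 5.93 and 384 CPM and 0 to 179.7 CPM with a median of 0 CPM, a log2 ratio of -3.46 (-3.76 to -3.16), and Ctla2a, a cathepsin inhibitor gene with a close paralog, had 5310.2, 2198, 2919.8, 7241 and 4788 CPM and 0 to 4097 CPM with a median of 1762 CPM, one of -1.25 (-1.31 to -1.20). Of 29 actin cytoskeleton genes over the minimum 6 were at least 4-fold lower, 2 on leaving out any 1 cell, and 1 higher, with a median of -0.78. Tmsb4x, encoding the actin-sequestering thymosin beta 4 and the most abundant transcript of the pre-stimulation cells, had 70885, 22936, 16468, 42242 and 40812 CPM and 1379 to 43352 CPM with a median of 12954 CPM, a log2 ratio of -1.58 (-1.60 to -1.56). It differed between the activated cells of the title dates, at -1.01 and -2.13. Pfn1, profilin, had 3149 against 4767 CPM, and Vim, vimentin, 30.7 against 297 CPM. All 98 activated reads of Vim were in replicate 11, and its log2 ratio of -3.27 ranged from -8.08 to -2.88 on leaving out any 1 cell. The list took 101170, 40710.3, 42230.2, 67051 and 64394 CPM in the pre-stimulation cells and 11979.7 to 59013 CPM with a median of 25918 CPM in the activated cells, 10 of which lay below every pre-stimulation cell.

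Of 10 adhesion and migration genes over the minimum 4 were at least 4-fold lower, with Ccr2 the only one on leaving out any 1 cell, and 1 was higher. That one, Cd44, the hyaluronan receptor, had 97.5, 0, 0, 0 and 0 CPM and 9.65 to 835 CPM with a median of 86.3 CPM, a log2 ratio of 3.19 (2.60 to 3.84). The residency receptor Cxcr6 had 798 against 985 CPM and Cd52 8544 against 5336 CPM. None of the 5 antigen presentation genes over the minimum of 15 passed 4-fold, and 1 of them was above 0. B2m, the invariant chain of class I molecules, had 18775, 30004, 9743, 17533 and 22897 CPM and 3545 to 20772 CPM with a median of 9201 CPM, a log2 ratio of -1.06 (-1.08 to -1.03), while H2-K1 and H2-D1, whose reads can be shared with close paralogs, had -0.60 (-0.67 to -0.53) and -1.11 (-1.22 to -1.01). Of 25 interferon-response genes 4 passed the minimum and 3 were at least 4-fold lower, 2 on leaving out any 1 cell. Xaf1 had 85.3, 284, 0, 0 and 556 CPM and 1 read in the activated cells. Pre-stimulation replicate 5 had the highest summed level of the list, 2292 CPM against 11.9 to 386 CPM in the other 4, and without it 1 gene passed the minimum, Bst2, at a log2 ratio of 3.29.

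Many of the lower calls among cell-cycle genes depended on 1 resting cell. Pre-stimulation replicate 1 had 34185 CPM over the mitosis list, against 753 to 2086 CPM in the other 4 and 906 to 9648 CPM with a median of 3188 CPM in the activated cells. With it, 8 of 12 mitosis genes over the minimum were at least 4-fold lower in the activated cells, at a median of -6.08. Without it and with the minimum applied anew, 5 genes passed, of which 1 was at least 4-fold lower and 2 higher, at a median of 1.76. Over the same 12 genes the median without it was 0.00, and 4 of these 12 stayed at least 4-fold lower on leaving out any 1 cell. Hmgb2, a chromatin protein of dividing cells, had 10579.7, 11.8, 443, 17.8 and 27.8 CPM and reads in 1 activated cell, a log2 ratio of -7.50 that was -2.93 without replicate 1. Pcna, the sliding clamp of DNA replication, had 983, 0, 0, 0 and 0 CPM and 0 to 416 CPM with a median of 151 CPM, so its log2 ratio of -0.58 became at least 5.33 without replicate 1. Tyms, which makes thymidylate, had 914, 0, 0, 0 and 4.63 CPM and 0 to 730.3 CPM with a median of 121 CPM. Of DNA replication genes 5 of 12 were at least 4-fold lower with replicate 1, and 1 of 7 that passed the minimum without it, where 2 were higher. Without replicate 5 the lower genes numbered 8 of 12. With the first 12 genes kept throughout, 2 stayed at least 4-fold lower on leaving out any 1 cell. Of 7 G1 genes over the minimum 2 were at least 4-fold higher, both on leaving out any 1 cell too, and 2 lower, 1 of them on leaving out any 1 cell. The G1 regulators Cdkn1a, the inhibitor p21, and Cdk4 had 253 and 114 CPM against 18.7 and 37.3 CPM. All resting reads of both were in replicate 1, and their log2 ratios of 3.76 and 1.61 became at least 5.92 and 4.77 without it. Ccnd2 had 721 against 1336 CPM.

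The ribosomal proteins themselves stood near a log2 ratio of 0 as a group. Of 80 over the minimum 1 was at least 4-fold higher and none lower, with a median of 0.09, and the list took 99118, 276671, 227109, 248445 and 203211 CPM in the pre-stimulation cells and 127428 to 215860 CPM with a median of 197790 CPM in the activated cells. The exception was Rps26, with 309, 1037, 486, 284 and 806 CPM and 534 to 7170.2 CPM with a median of 1781 CPM, a log2 ratio of 2.05 (1.93 to 2.18) that fell to 1.84 on leaving out 1 cell and was 0.66 in the IL-5 index, and Rps27l had 1.87 (1.76 to 1.97). As 27.9% of alignments were not unique and were left out of the counts, genes with close copies, ribosomal proteins among them, are uncertain. Genes on the other strand overlap further members named here, among them Junb (Prdx2), Dkc1 (Mpp1), G6pdx (Ikbkg), Tnfrsf9 (Camta1), Gapdh (Iffo1), Cdk4 (Tspan31) and B2m (Patl2), whose reads are uncertain for the same reason as those of Csf2. Of the nuclear non-coding RNAs Malat1 had 5289.9, 10955, 11709, 1759.8 and 8427 CPM and 1129 to 31392 CPM with a median of 3549 CPM, a log2 ratio of -0.32 (-0.36 to -0.28), and its highest activated values, 14389 and 31392 CPM, were in replicates 9 and 10, the 2 cells with the most alignments outside genes.

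**Figure D4:**
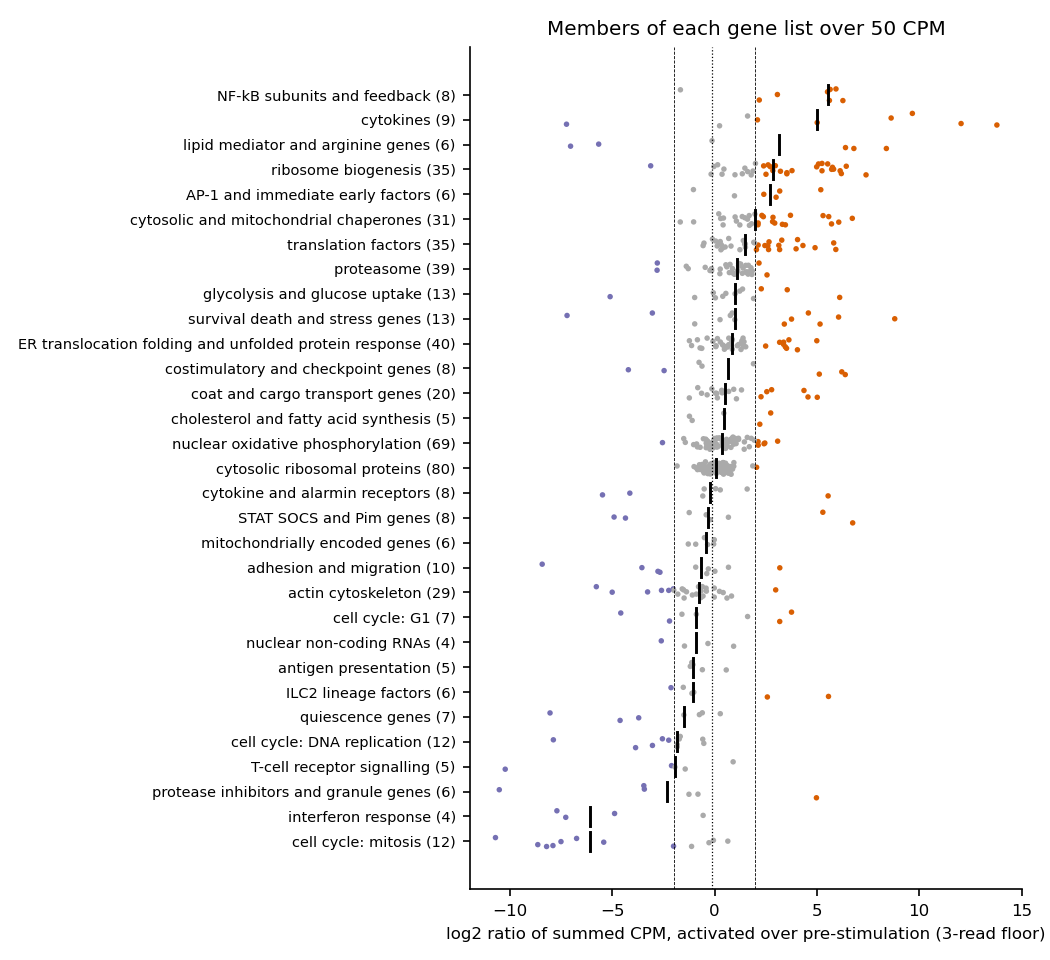
Log2 ratio of summed CPM, activated over pre-stimulation (horizontal), for each member that averaged 50 CPM or more (1 point per gene, number in brackets) of the lists with at least 4 such members (vertical). Thick bars are list medians, the dotted line is the median of all genes and the dashed lines mark 4-fold; NF-kB genes have a median of 5.57, ribosome biogenesis 2.85 and ribosomal proteins 0.09, and the mitosis median of -6.08 is 0.00 for the same 12 genes without pre-stimulation replicate 1.

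Il22, an ILC3 cytokine by its marker list, had 1098 reads in 3 activated cells and none before stimulation, with Il23r, Il17f and Ncr1 at 0 in all 16 cells. Replicate 11 held 99.7% of these reads, at 2358 CPM, and replicates 8 and 10 had 6.10 and 4.34 CPM.

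The same states were compared in the cells indexed by IL-5 secretion, 11 activated and 5 pre-stimulation cells that share no cell with the IL-13 index. There 403 of 2762 genes (14.6%) were at least 4-fold higher and 619 (22.4%) lower. Of the 12 leading rises of the IL-13 index 10 were at least 4-fold higher in the IL-5 index too, and of the 12 leading falls 9 were at least 4-fold lower. Il13 and Ccl1 had 0 reads in the resting cells of the IL-5 index and 1 read each in those of the IL-13 index, so no exact ratios can be set side by side. Their summed activated levels were 991 and 2201 CPM in the IL-5 index, at least 400.5-fold and at least 889-fold above the floor, and 1231 and 7092 CPM in the IL-13 index. Csf2 had 12102 against 28 CPM in the IL-5 index and 13159 against 1.04 CPM, from 1 read, in the IL-13 index. The rises that were not shared at this size were Mrpl15 and Eprs, at 0.50 and 0.52 in the IL-5 index, where both were read before stimulation, at 221 and 111 CPM. The falls were Slc6a13, Gmfg and Metrnl, at -1.23, -1.28 and -1.60. Il5 had 2929 CPM in the activated cells of its own index and 772 CPM in those of the IL-13 index. Id2 had 0.10 in the IL-5 index and -2.13 in the IL-13 index, and Cd3g, without a read in the activated cells of the IL-13 index, had 1195 and 1128 CPM in the resting cells. Ribosome biogenesis and NF-kB members over the minimum had medians of 3.13 and 1.38 in the IL-5 index, against 2.85 and 5.57. Whether the indexes differ was not tested.

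**Figure D5:**
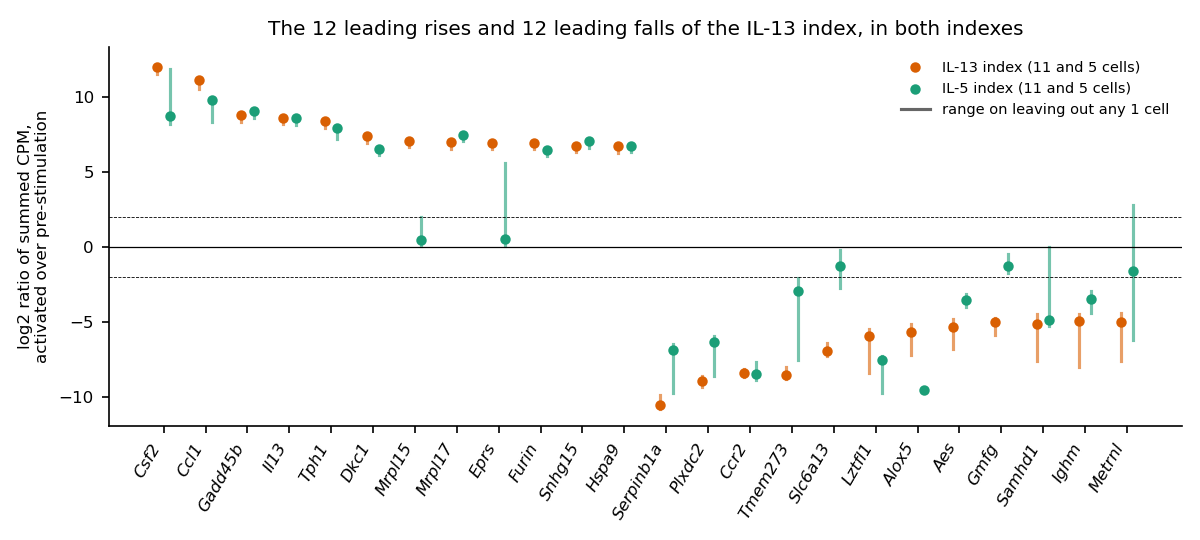
Log2 ratio of summed CPM, activated over pre-stimulation (vertical), of the 12 leading rises and 12 leading falls of the IL-13 index, in the IL-13 (orange) and IL-5 (green) index, each with 11 activated and 5 pre-stimulation cells; vertical lines span the values on leaving out any 1 cell and dashed lines mark 4-fold. All 24 point the same way in both, with Mrpl15, Eprs, Slc6a13, Gmfg and Metrnl inside the 4-fold lines in the IL-5 index.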

How the data were processed

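Single-cell cDNA was made with SMART-Seq v4 3′ DE kits, and 5 or 6 libraries were pooled before tagmentation, per the labels. The deposited files hold raw counts of reads for each gene, from the authors aligning read 1 to GRCm38 with TopHat2 and counting with HTSeq. The submitters' processing notes list mm10 and a human build, and the annotation release and strand setting are not given in the sources used here. Each file had 46078 identifiers, of which 45229 matched a gene name, and 5 summary entries. Over the 16 cells 6.15% of alignments lay outside genes, 1.73% were ambiguous and 27.9% were not unique, and these stayed out of the totals.

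Groups came from the labels. Members and gene lists were chosen with earlier results of these data known. Counts were summed per group and divided by total gene reads in Python 3.11.15 (pandas 2.3.3, scipy 1.17.1), with edgeR 4.0.16 and DESeq2 1.42.0 in R 4.3.3 used only for scale factors. Genes needed a mean of 50 CPM over the groups, a call was a 4-fold difference, and a group under 3 reads was set to 3 reads. The calculation was checked on simulated counts. At this depth 3 reads are 0.939 CPM in the activated and 3.11 CPM in the pre-stimulation sum.

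Genes named in the text were cytokines and chemokines with 50 CPM in the higher group, the 12 leading rises and 12 leading falls, and up to 4 members of each of 33 pathway lists. Leading genes were read in at least 70% of the cells of the higher group, with no cell holding most of the reads, kept their direction under other weightings, dates and left-out cells, and were ranked by the smallest ratio on leaving out any 1 cell; 753 genes were eligible as rises and 270 as falls. Other names (members behind a count, markers of 12 cell type lists, Il22 and Bst2) were added after their values were seen. A few genes are not reported here. Alternatives covered scaling, CPM minimum, weighting, title date, resting cells of both indexes and left-out cells.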

Additional observations from a re-analysis of the deposited data

Results flagged for a closer look

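Of 123 values checked among the 5 pre-stimulation cells, in 17 the highest or lowest cell lay so far from the next that this gap was over 0.71 of the whole range. Named genes and lists were checked only where the pre-stimulation sum reached 50 CPM, so genes below it, such as Il5, are not covered. Normally distributed values pass this limit by chance in about 1 in 20 groups, but CPM of single cells are not such values: with 4 of 5 cells at 0, as for Pcna, Tnfsf14, Calca and Kcnq1ot1, the gap is the whole range by construction. For sums over gene lists, 4 of 37 cell and list values did so. The highest cell had 7488 CPM over DNA replication genes and 34185 CPM over mitosis genes, both in replicate 1, and 2292 CPM over interferon-response genes, in replicate 5. For lipid mediator and arginine genes the lowest cell was the distant one, at 310.2 CPM.

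The other 13 were single genes with 1 distant high cell. Replicate 1 was that cell for Tnfsf14 (211 CPM), Cd3g (4034 CPM), Pcna (983 CPM), Tyms (914 CPM) and Hmgb2 (10579.7 CPM). Replicate 2 was it for Il2 (1037 CPM) and Calca (740.6 CPM), and replicate 3 for Nfkbia (862 CPM), Rora (339.9 CPM), Btg1 (1275 CPM) and the antisense RNA Kcnq1ot1 (619 CPM). Replicate 5 was it for Lcp2 (1195 CPM) and the interferon-induced gene Ifi35 (421 CPM). The causes were not tested.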

How the results depend on the processing

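The log2 ratio of Il13, 8.63, was 7.92 to 9.80 under the other scalings, weightings, title dates and resting cells, and 8.20 to 8.77 on leaving out any 1 cell. The number of genes at least 4-fold higher, 425, was 397 to 497 on leaving out any 1 cell, and that of lower genes, 542, was 506 to 628, both highest without pre-stimulation replicate 1. With a minimum of 10 CPM there were 1607 higher and 1361 lower genes, with 200 CPM 70 and 73, and with none 2049 and 1814. Lower genes numbered 221 when the difference had to hold on leaving out any 1 cell, a rule added after the data were seen. Of 79 named genes at least 4-fold apart, 77 remained so with TMM or DESeq2 factors, 73 and 74 with the activated cells of the first and second title date, 68 on leaving out any 1 cell and 59 with the resting cells of both indexes. With the latter, the log2 ratio of Inpp5d, a lipid phosphatase without reads in the 5 resting cells, was -0.48 in place of 4.44. The median of the lipid mediator and arginine list, 3.14, was -0.84 with the first title date, -0.71 without activated replicates 9 and 10 and -0.43 to 5.97 on leaving out any 1 cell, lowest without activated replicate 10. The mitosis median, -6.08, was -7.02 to 1.76 on leaving out any 1 cell, highest without pre-stimulation replicate 1, where 5 genes passed the minimum and the same 12 genes gave 0.00. The interferon median, -6.08, was 0.79 with the resting cells of both indexes and -6.88 to 3.29 on leaving out any 1 cell, highest without pre-stimulation replicate 5, with fewer genes over the minimum. The cause of the other changes was not tested. No paired analysis was possible because no test was made and the cells of the groups share only a number. Reads without molecular identifiers and 5 resting cells limit all values.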
